A study of Mus musculus with 11 samples.

Results

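The receptors for glutamate, acetylcholine (muscarinic class), GABA (class A), serotonin and opioids are encoded by 65 mouse protein-coding genes in these data, out of 21631 annotated in GRCm38. Members were taken by symbol (Gria, Grik, Grin, Grm, Chrm, Gabr or Htr followed by a number or letter, plus Oprm1, Oprd1 and Oprk1). They comprise 4 AMPA, 5 kainate, 7 NMDA and 8 metabotropic glutamate receptor genes, 5 muscarinic, 19 GABA-A, 14 serotonin and 3 opioid receptor genes. The symbols Grina and Htra1 to Htra4 share the letters but were left out, 5 in all. The set was proposed with the SmoM2 and WT values of Oprm1 and Grin3a in view, so differences between SmoM2 and WT are given here as a description and without p-values. No p-value is given for Oprm1 or Grin3a in any comparison.

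AMPA, kainate and NMDA receptors are ion channels opened by glutamate, and GABA-A receptors are chloride channels opened by GABA. Metabotropic glutamate, muscarinic and opioid receptors, and most serotonin receptors, signal through G proteins instead. In the digestive tract, acetylcholine acts on muscarinic receptors of smooth muscle and glands, and opioid and serotonin receptors are best known from the nerves of the gut wall. Keratinocytes of stratified epithelia are also known to carry some of these receptors. Open chromatin at such a gene shows that regulatory DNA there is accessible to the transposase, and it does not measure transcription.

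The series mapped open chromatin by ATAC-seq in sorted cells of the mouse esophagus. WT mice (strain CD1; 3 libraries) carried no transgene and gave cells with low EpCam, an epithelial surface protein. SmoM2 mice (Krt5-SmoM2, strain CD1; 3 libraries) express an active form of the Hedgehog signal transducer Smoothened under the keratin 5 promoter of basal epithelial cells, and cells with high EpCam were sorted. SmoM2-Sox9cKO mice (Krt5-SmoM2-Sox9fl/fl; 3 libraries) carry the same transgene with floxed alleles of the transcription factor gene Sox9, and were also sorted for high EpCam. Embryo libraries (Krt8YFP; 2 libraries) came from YFP-positive cells of the embryonic day 13 esophagus. No strain for the last 2 groups, no age for the adult mice and no number of animals per library is stated in the labels. WT differs from both SmoM2 groups in genotype and in EpCam gate together, and these cannot be told apart. The labels do not tie libraries to separate mice. P-values therefore reflect only how much these libraries vary, and that spread may be technical.

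Each library was deposited as a list of open intervals, 69026 to 87910 in the adult groups and 24902 and 14255 in the Embryo libraries. The lists hold no read numbers, so depth is unknown. All lists were merged into 124941 regions, and a region was counted as occupied in a library where that library's list overlapped it. A gene's locus held the regions whose midpoint lay nearest to its gene body within 100 kb, and openness was the number of them that was occupied. The epithelial genes Krt5, Krt14, Trp63, Sox2 and Epcam had occupied regions in all 9 adult libraries. So did markers of other cell types, among them Pecam1 (endothelium), Mbp (glia) and Spi1 (immune cells). Occupancy at such genes therefore does not identify the sorted cells. The lists of 1 WT library, all 3 SmoM2 libraries, 2 SmoM2-Sox9cKO libraries and neither Embryo library held intervals at 4 Y-linked genes, and the labels state no sex. In sorted pools, fewer cells with an open region and less opening per cell cannot be told apart.

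Start-site sequences are shown first for the loci on which the results turn. They are the 250 bases upstream of the RefSeq transcription start in GRCm38.p6, 5′ to 3′ on the gene's strand, with each CG dinucleotide in capitals. Chrm3, Gria4, Grm6 and Oprd1 are shown as examples of genes whose start-site window differed in openness between adult libraries. Of the members' 58 windows, 14 differed in this way. Grik4 is shown because its window was occupied in every adult library while the rest of its locus varied, and Oprm1 because none of its windows was occupied although its gene body was.
Chrm3: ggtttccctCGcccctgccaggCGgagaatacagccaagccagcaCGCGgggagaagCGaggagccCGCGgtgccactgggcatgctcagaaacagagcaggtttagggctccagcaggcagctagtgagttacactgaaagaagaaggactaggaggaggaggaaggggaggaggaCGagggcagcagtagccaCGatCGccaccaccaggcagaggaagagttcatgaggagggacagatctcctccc
Gria4: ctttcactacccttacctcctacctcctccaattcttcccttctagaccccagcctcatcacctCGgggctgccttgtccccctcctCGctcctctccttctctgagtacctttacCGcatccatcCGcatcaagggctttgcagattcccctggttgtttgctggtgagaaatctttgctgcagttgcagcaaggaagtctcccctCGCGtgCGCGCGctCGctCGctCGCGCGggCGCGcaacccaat
Grm6: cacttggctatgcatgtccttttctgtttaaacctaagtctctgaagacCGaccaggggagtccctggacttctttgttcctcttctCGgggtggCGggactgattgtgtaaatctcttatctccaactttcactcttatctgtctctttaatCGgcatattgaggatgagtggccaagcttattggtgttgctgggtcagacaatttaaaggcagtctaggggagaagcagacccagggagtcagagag
Oprd1: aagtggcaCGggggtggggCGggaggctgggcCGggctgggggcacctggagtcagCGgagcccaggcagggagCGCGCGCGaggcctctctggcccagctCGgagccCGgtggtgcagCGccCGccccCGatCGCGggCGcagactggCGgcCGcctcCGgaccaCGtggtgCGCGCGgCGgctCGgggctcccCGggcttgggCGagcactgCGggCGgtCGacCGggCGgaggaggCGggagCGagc
Grik4: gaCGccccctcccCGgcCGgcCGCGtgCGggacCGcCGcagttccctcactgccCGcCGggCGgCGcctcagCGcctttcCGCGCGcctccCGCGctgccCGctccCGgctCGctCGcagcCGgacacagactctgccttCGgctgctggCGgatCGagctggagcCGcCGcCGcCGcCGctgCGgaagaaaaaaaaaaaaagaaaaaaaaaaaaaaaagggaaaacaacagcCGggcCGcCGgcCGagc
Oprm1: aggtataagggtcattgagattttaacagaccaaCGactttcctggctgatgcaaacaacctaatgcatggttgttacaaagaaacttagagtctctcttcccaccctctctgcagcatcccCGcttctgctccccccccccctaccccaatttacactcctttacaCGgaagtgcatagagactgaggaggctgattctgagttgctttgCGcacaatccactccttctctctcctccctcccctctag

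The printed Chrm3 stretch (chr13:10360804-10361053, minus strand) holds 10 CG dinucleotides. It lies inside region chr13:10359410-10361276, which was listed by all 3 SmoM2 libraries, 2 SmoM2-Sox9cKO libraries and both Embryo libraries but by no WT library. The Gria4 stretch (chr9:4796235-4796484, minus strand) holds 16, and region chr9:4795082-4796220, occupied in 3 of 3 SmoM2 libraries and in none of the other 8, ended just downstream of it, inside the first bases of the gene. The Grm6 stretch (chr11:50850435-50850684, plus strand) holds 4 and lies in region chr11:50849640-50851547. That region was occupied in 3 of 3 WT, 3 of 3 SmoM2-Sox9cKO and 2 of 2 Embryo libraries and in 0 of 3 SmoM2 libraries. The Oprd1 stretch (chr4:132144487-132144736, minus strand) holds 34, and its window was open in 2 WT libraries, 1 SmoM2 library, all 3 SmoM2-Sox9cKO libraries and 1 Embryo library. The Grik4 stretch (chr9:42944372-42944621, minus strand) holds 36, and its window was occupied in all 9 adult libraries and 1 Embryo library. The Oprm1 stretch (chr10:6788320-6788569, plus strand) holds 4, and the gene's 3 start-site windows were occupied in no library.

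The receptor loci were long and sparsely open. The median gene body of the 65 members was 90.7 kb against 17.3 kb over all protein-coding genes, and the median locus was 212.5 kb against 44.2 kb. Per 100 kb of locus, the median member had 0.749 occupied regions in an adult library and the median gene 4.049. Short loci were the densest: Chrm4, a muscarinic receptor that inhibits adenylyl cyclase, had 22.7 regions per 100 kb, Grin2c 16.4, Grin1, the obligatory NMDA receptor subunit, 10.2, and Grm2 9.39. The members' loci took in 301 regions, of which 212 had their midpoint in a gene body. Of these 301, 53 (17.6%) were occupied in all 9 adult libraries, against 37.0% of all regions assigned to a gene. Where a member region was occupied, it mostly ranked below the middle of its list by −log10 p, as listed by the authors. The median percentile within the list was 30.7 to 40.8 in the adult libraries and 22.0 to 25.8 in the Embryo libraries.

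At 8 members no region was occupied in any adult library, among them the AMPA subunits Gria1 and Gria3, the GABA-A subunits Gabra6 and Gabrg3, the serotonin receptors Htr1a and Htr2b, and Oprk1, the kappa opioid receptor. Of these, Gria3, Htr1a and Oprk1 had 1 occupied region in 1 Embryo library, Gabrg3 had 1 in each, and the other 4 had none in any library. Such genes made up 12.3% of the members and 19.1% of all genes. A locus was tested where the mean over the 9 adult libraries was at least 1 occupied region, which 38 of the 65 members and 15365 genes reached. Gabra4, Gabrd and Htr3a stood just inside this limit with a mean of 1.0, and Gabrb1, Htr5b and Gabrq just outside it with 0.889. The 27 members below it are given by their counts only.

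**Figure D1:**
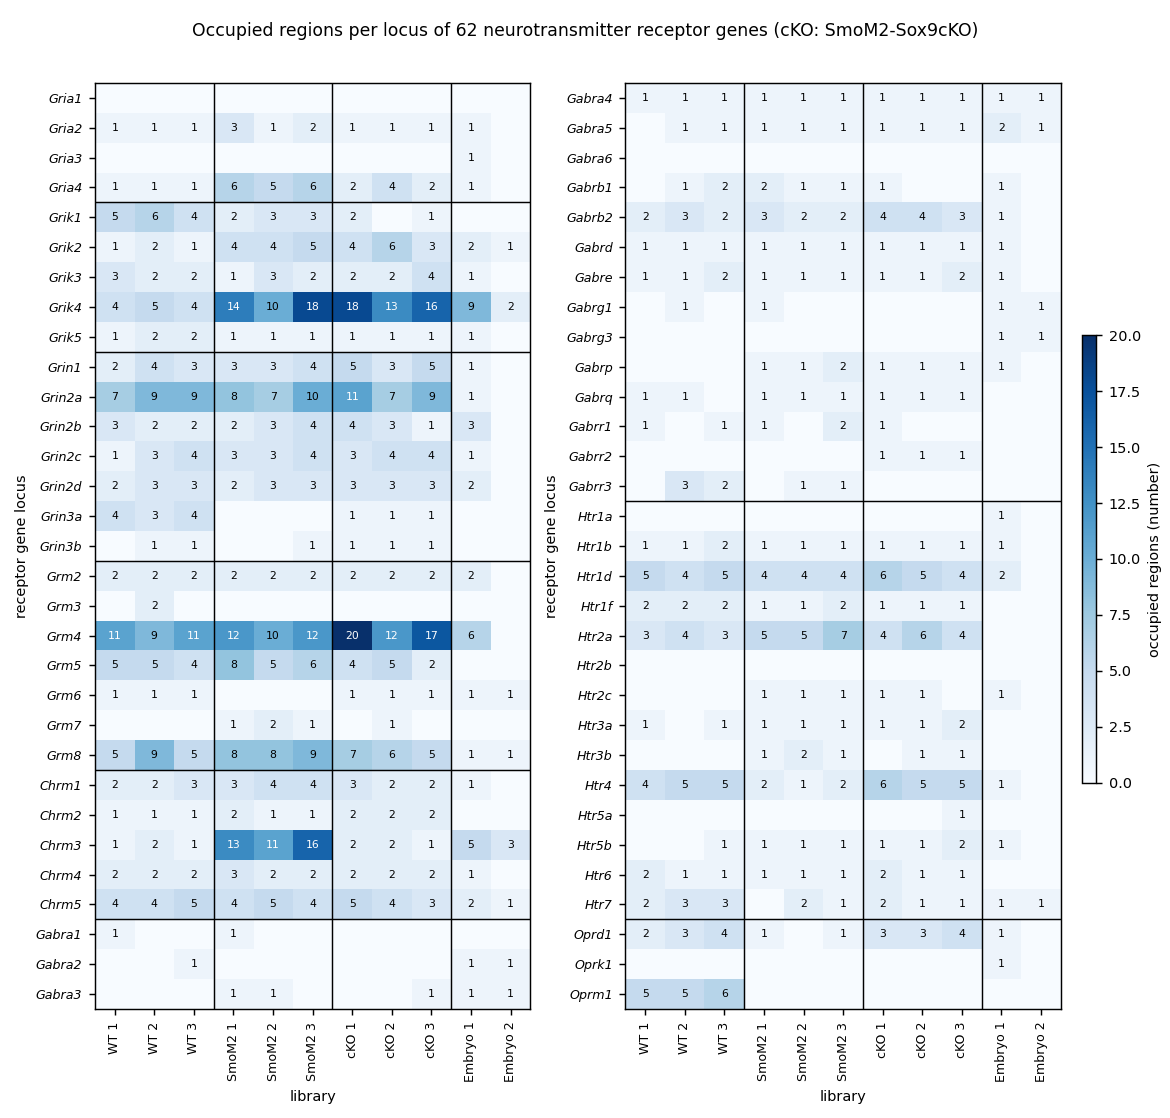
Occupied regions at 62 of the 65 receptor loci (rows, split over 2 panels and grouped by receptor class) in each of the 11 libraries (columns); darker blue means more regions and blank cells are 0. Chrm3 stands out with 11 to 16 regions in SmoM2 alone, Grik4 is dark in SmoM2 and SmoM2-Sox9cKO, and Oprm1 is filled only in WT.

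Among the kainate receptor genes, Grik4 and Grik2 were more open in both transgenic groups than in WT. Grik4, which encodes a kainate subunit of high affinity that needs a partner subunit to form a channel, had 4, 5 and 4 occupied regions in the WT libraries, 14, 10 and 18 in SmoM2, 18, 13 and 16 in SmoM2-Sox9cKO, and 9 and 2 in Embryo. Every SmoM2 and SmoM2-Sox9cKO library was above every WT library. On the log2 scale of occupied regions per 100000 of the library (with 0.5 added), SmoM2 was 1.43 above WT. SmoM2-Sox9cKO was 1.67 ± 0.16 (SE) above WT (limma across all tested loci, adjusted p = 0.000598, n = 3 libraries per group), and 0.24 ± 0.16 above SmoM2 (adjusted p = 0.700). The call against WT held in all 22 alternative analyses. Region chr9:42865032-42866827 in the gene body was occupied in 3 of 3 libraries of both transgenic groups and both Embryo libraries and in 0 of 3 WT libraries. Region chr9:42626384-42628243 was likewise absent from WT and present in all 6 transgenic libraries and 1 Embryo library. Regions chr9:42934829-42935500 and chr9:42926144-42926982 were occupied in 3 of 3 SmoM2-Sox9cKO libraries and in no other.

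Grik2, which encodes a kainate subunit able to form a channel alone, had 1, 2 and 1 occupied regions in WT, 4, 4 and 5 in SmoM2, 4, 6 and 3 in SmoM2-Sox9cKO, and 2 and 1 in Embryo. The transgenic libraries again lay above all WT libraries. The log2 level rose by 1.33 ± 0.25 in SmoM2-Sox9cKO against WT (limma, adjusted p = 0.0125), with SmoM2 1.31 above WT. This call was lost with loci reaching 20 kb and with lists cut to equal length, where the adjusted p was at most 0.115. Regions chr10:49191506-49192470, in the gene body, and chr10:49025082-49025606, beyond it, were occupied in all 6 transgenic libraries and in no WT or Embryo library.

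Grik1, another subunit able to form a channel alone, went the other way: 5, 6 and 4 regions in WT, 2, 3 and 3 in SmoM2, 2, 0 and 1 in SmoM2-Sox9cKO, and none in Embryo. The log2 level in SmoM2-Sox9cKO fell by 2.20 ± 0.48 against WT (limma, adjusted p = 0.0249), a call kept in 15 of 21 alternatives with adjusted p from 0.000490 to 0.0978. SmoM2 was 0.92 below WT on this scale, a change the fit did not call. Region chr16:88112198-88113223 in the gene body was occupied in 3 of 3 WT libraries and no other, and chr16:88114908-88115539 in 3 of 3 WT and 1 of 3 SmoM2-Sox9cKO libraries. Grik5, the other subunit of high affinity, had 1 or 2 regions in WT and 1 in each library of both transgenic groups. Grik3 had 1 to 4 in every adult library with overlapping groups.

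Among the AMPA receptor genes, Gria4 had 1, 1 and 1 occupied regions in WT, 6, 5 and 6 in SmoM2, 2, 4 and 2 in SmoM2-Sox9cKO, and 1 and 0 in Embryo. The 3 adult groups did not overlap, with SmoM2-Sox9cKO between the others. SmoM2 was 1.91 above WT on the log2 scale. SmoM2-Sox9cKO was 0.95 ± 0.23 below SmoM2 (limma, adjusted p = 0.133) and rose by 0.96 ± 0.23 against WT (adjusted p = 0.0396). The last call held in 7 of 22 alternatives. It was lost with each of the 3 WT libraries left out in turn, and with intervals limited to −log10 q of at least 5 the sign turned, to −0.25. Besides the start-site region, chr9:4719303-4719987 in the gene body and chr9:4842263-4843123 upstream were present in all 3 SmoM2 libraries, 2 SmoM2-Sox9cKO libraries and no WT library. Gria2, whose edited subunit sets calcium permeability, had 1 region in each WT and SmoM2-Sox9cKO library and 3, 1 and 2 in SmoM2.

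Grin2a, a glutamate-binding subunit of NMDA receptors, had 7, 9 and 9 regions in WT, 8, 7 and 10 in SmoM2 and 11, 7 and 9 in SmoM2-Sox9cKO, with overlapping groups and 5 regions occupied in all 9 adult libraries. Grin1, Grin2b, Grin2c and Grin2d had 1 to 5 regions in each adult library, and none of the 4 passed the test in either comparison with SmoM2-Sox9cKO. Grin3a, a glycine-binding subunit that lowers calcium flow through the channel, had 4, 3 and 4 regions in WT, 0, 0 and 0 in SmoM2, 1, 1 and 1 in SmoM2-Sox9cKO, and none in Embryo. The region that SmoM2-Sox9cKO shared with WT was the same in all 3 libraries, chr4:49826649-49827873 in the gene body. Regions chr4:49845061-49845906 and chr4:49688402-49689289, also in the gene body, were occupied in 3 of 3 WT libraries and in no other library. Grin3b had at most 1 region per library.

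Of the metabotropic glutamate receptor genes, limma called 0 of 5 tested in SmoM2-Sox9cKO against SmoM2 and 0 against WT, with 2 and 2 at an unadjusted p under 0.05. In these comparisons it called 0.853% and 7.41% of all tested loci at an adjusted p under 0.05, both directions together. The unadjusted share of all loci is not given here, so nothing is read from the 2 and 2. Grm4, a receptor coupled to inhibitory G proteins, had the most regions of the class, with 11, 9 and 11 in WT, 12, 10 and 12 in SmoM2, 20, 12 and 17 in SmoM2-Sox9cKO, and 6 and 0 in Embryo. SmoM2-Sox9cKO lay above every WT library, by 0.55 ± 0.17 on the log2 scale (limma, adjusted p = 0.0857), which did not pass. Grm8 had 5, 9 and 5 regions in WT, 8, 8 and 9 in SmoM2 and 7, 6 and 5 in SmoM2-Sox9cKO, and Grm5, coupled to phospholipase C, had 5, 5 and 4, then 8, 5 and 6, then 4, 5 and 2. Grm6, the receptor by which retinal bipolar cells sense glutamate, had a single region, the start-site region given above. It was too sparse to be tested, and the groups did not overlap: 1 in every WT and SmoM2-Sox9cKO library and 0 in every SmoM2 library. Grm7, with the longest body of the set (921.9 kb), had 0 in WT, 1, 2 and 1 in SmoM2, and 0, 1 and 0 in SmoM2-Sox9cKO.

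**Figure D2:**
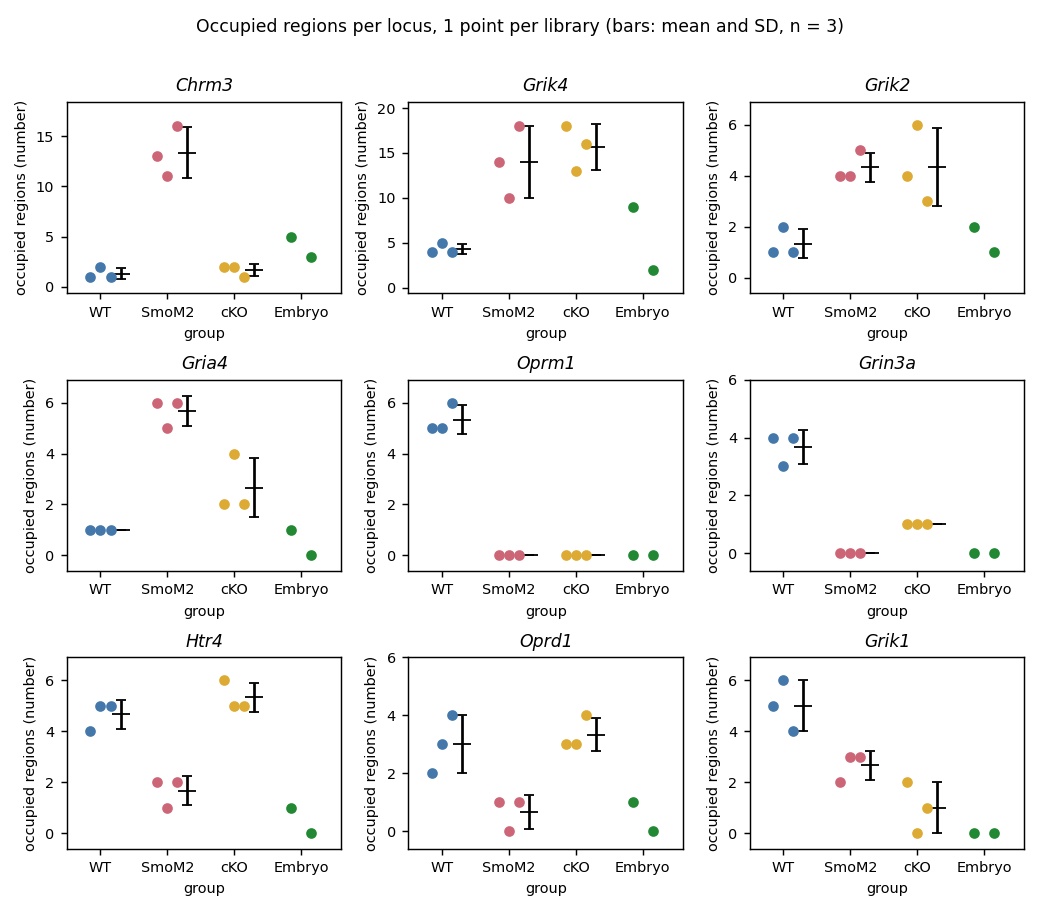
Occupied regions (y axis, number) at 9 receptor loci, 1 point per library, by group (x axis; cKO is SmoM2-Sox9cKO), with mean and SD of the 3 adult libraries beside the points; y axes differ between panels. Chrm3 is high in SmoM2 alone (mean 13.3), Grik4 and Grik2 are high in both transgenic groups, Oprm1 is above 0 in WT alone, and Htr4 and Oprd1 are low in SmoM2 alone among the adult groups.

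Between the transgenic groups, openness differed at Chrm3, the muscarinic receptor that couples to phospholipase C and drives smooth muscle contraction and gland secretion. It had 1, 2 and 1 occupied regions in WT, 13, 11 and 16 in SmoM2, 2, 2 and 1 in SmoM2-Sox9cKO, and 5 and 3 in Embryo. Every SmoM2 library was far above every other adult library, and WT and SmoM2-Sox9cKO overlapped. SmoM2 was 2.82 above WT on the log2 scale. The level in SmoM2-Sox9cKO fell by 2.64 ± 0.23 against SmoM2 (limma, adjusted p = 0.00275, n = 3 per group) and was 0.18 ± 0.23 above WT (adjusted p = 0.713). Both comparisons with SmoM2 share its libraries and are not independent. The fall held in 21 of 22 alternatives and was lost when only intervals with −log10 q of at least 5 were kept (adjusted p = 0.145).

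Of the 21 regions of the Chrm3 locus, 5 were occupied in 3 of 3 SmoM2 libraries and in no WT or SmoM2-Sox9cKO library. Among them are chr13:10082827-10083663, chr13:10251047-10251587 and chr13:10357225-10357574 in the gene body, and chr13:10454050-10455139, which lies 93.5 kb beyond the 5′ end. The last was also occupied in both Embryo libraries, and the start-site region likewise. At this locus the Embryo lists thus held regions that WT lacked although they were the shortest lists.

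The other muscarinic genes varied little. Chrm5 had 3 to 5 regions in every adult library, Chrm4 2 or 3, Chrm1 2 to 4 and Chrm2 1 or 2, and none was called in the 3 adult comparisons. Chrm1 had 2, 2 and 3 regions in WT, 3, 4 and 4 in SmoM2 and 3, 2 and 2 in SmoM2-Sox9cKO. Chrm2, the muscarinic receptor of heart and smooth muscle that couples to inhibitory G proteins, had 1 in each WT library, 2, 1 and 1 in SmoM2, and 2 in each SmoM2-Sox9cKO library.

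**Figure D3:**
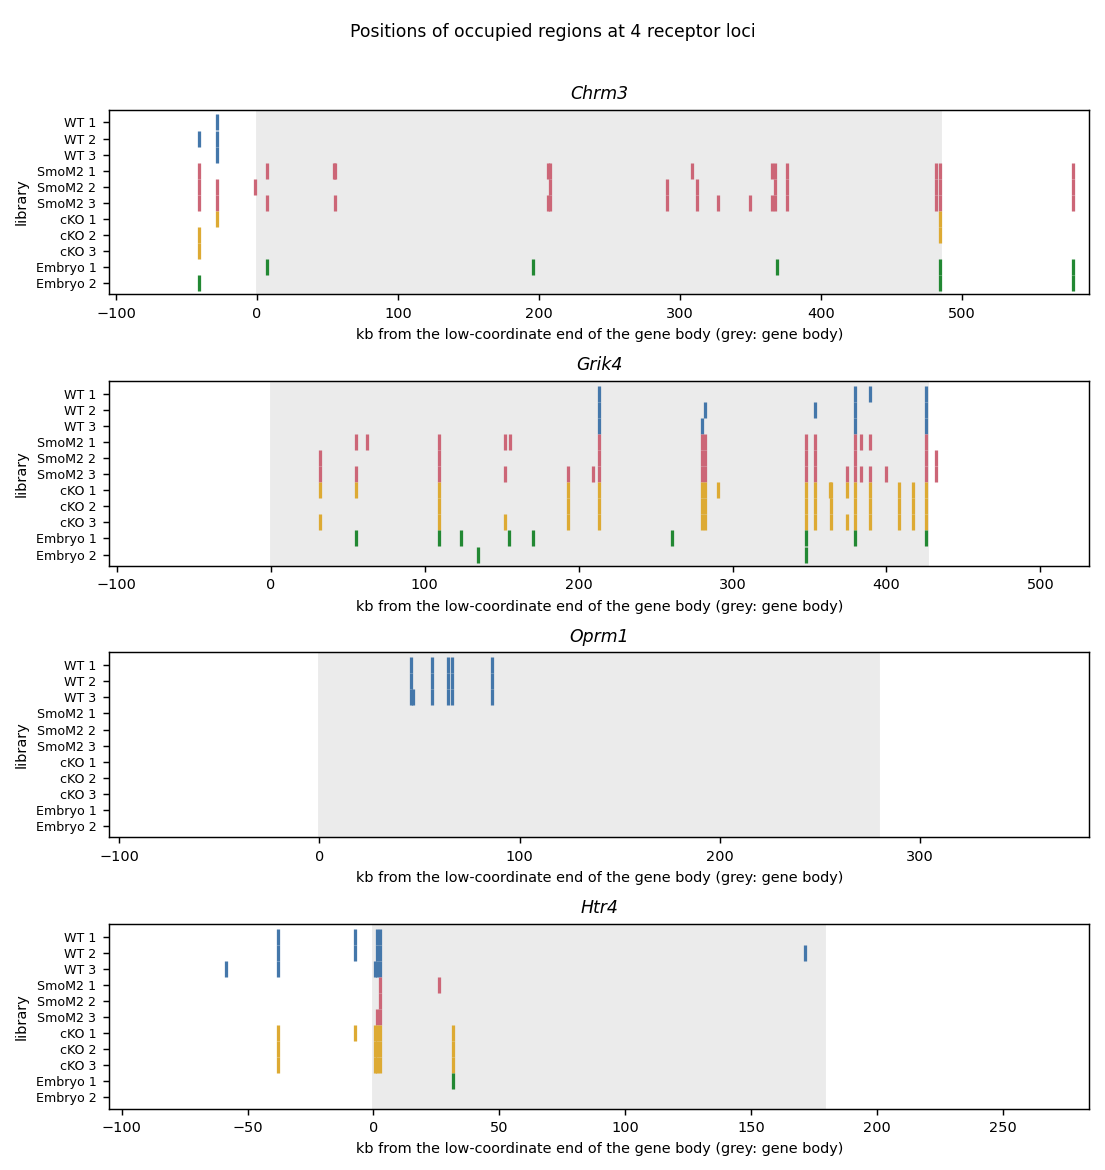
Positions of occupied regions (ticks) along 4 receptor loci, in kb from the low-coordinate end of the gene body (grey), with 1 row per library coloured by group. Chrm3 has ticks across its gene body in SmoM2 alone among the adult groups, Grik4 in both transgenic groups, Oprm1 only in WT and in the first part of its body, and Htr4 near its 5′ end with fewer ticks in SmoM2.

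GABA-A receptor genes were sparsely open, with 0.350 occupied regions per 100 kb in the adult libraries, and 5 of 19 were tested. Gabrb2, the beta subunit of the commonest brain receptor, had 2, 3 and 2 regions in WT, 3, 2 and 2 in SmoM2 and 4, 4 and 3 in SmoM2-Sox9cKO, the last group 0.63 ± 0.20 above SmoM2 (limma, adjusted p = 0.243). Its region chr11:42726027-42727246, 94.0 kb beyond the body, was occupied in all 6 transgenic libraries and in no WT or Embryo library, and ranked at a median percentile of 88.1 within those lists.

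Gabra4 had 1 region in each of the 11 libraries, chr5:71657603-71658498, which also covers the start of Gabrb1 and was counted at Gabra4 because its body is the shorter. Gabrp, whose pi subunit is best known outside the nervous system, had none in WT, 1, 1 and 2 in SmoM2 and 1 in each SmoM2-Sox9cKO library. Its region chr11:33540856-33541995 was occupied in all 6 transgenic libraries and in no WT library. Gabrr2, a rho subunit, had 1 region in each SmoM2-Sox9cKO library and none elsewhere. The remaining GABA-A genes had 0 to 3 regions in each library.

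Among the serotonin receptor genes, openness of Htr4 differed between the transgenic groups. Htr4, a receptor that raises cyclic AMP and promotes gut motility, had 4, 5 and 5 regions in WT, 2, 1 and 2 in SmoM2, 6, 5 and 5 in SmoM2-Sox9cKO, and 1 and 0 in Embryo. Every SmoM2 library was below every other adult library. SmoM2 was 1.41 below WT on the log2 scale. The level rose by 1.52 ± 0.17 in SmoM2-Sox9cKO against SmoM2 (limma, adjusted p = 0.00840, n = 3 per group) and was 0.11 ± 0.17 above WT (adjusted p = 0.713). The rise was lost with −log10 q of at least 5 and with lists of equal length, where the adjusted p reached 0.332, and held in the other 20 alternatives. Region chr18:62285090-62286209, 37.9 kb before the body, was occupied in 3 of 3 WT and 3 of 3 SmoM2-Sox9cKO libraries and in no SmoM2 library. Region chr18:62354985-62355441, inside the body, was occupied in 3 of 3 SmoM2-Sox9cKO libraries, 1 Embryo library and no other.

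Htr1f, coupled to inhibitory G proteins, had 2, 2 and 2 regions in WT, 1, 1 and 2 in SmoM2, and 1, 1 and 1 in SmoM2-Sox9cKO. Its log2 level fell by 0.80 ± 0.16 in SmoM2-Sox9cKO against WT (limma, adjusted p = 0.0193), kept in 16 of 21 alternatives. The change was a single region, chr16:65014977-65016048 in the gene body, occupied in 3 of 3 WT libraries and in no other. Htr7, coupled to stimulatory G proteins, had 2, 3 and 3 regions in WT, 0, 2 and 1 in SmoM2 and 2, 1 and 1 in SmoM2-Sox9cKO, 0.88 ± 0.49 below WT in the last (adjusted p = 0.374). Its region chr19:35875276-35876271 was occupied in 3 of 3 WT libraries and in no other. Htr2a had 3, 4 and 3, then 5, 5 and 7, then 4, 6 and 4. Htr1d had 4 to 6 in every adult library. The ion channel genes Htr3a and Htr3b had 0 to 2.

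The opioid receptor genes together had 7, 8 and 10 occupied regions in WT, 1, 0 and 1 in SmoM2 and 3, 3 and 4 in SmoM2-Sox9cKO. Oprm1, the mu receptor at which morphine acts, had 5, 5 and 6 occupied regions in the WT libraries and 0 in all 8 others. The 3 WT libraries shared 5 regions, all in the gene body: chr10:6803617-6804763, chr10:6814161-6815377, chr10:6822505-6823164, chr10:6824626-6825580 and chr10:6844477-6845331. The highest ranked was chr10:6814161-6815377, at a median percentile of 88.1 in the WT lists. All lie downstream of the printed start-site stretch. Oprd1, the delta receptor, had 2, 3 and 4 regions in WT, 1, 0 and 1 in SmoM2, 3, 3 and 4 in SmoM2-Sox9cKO, and 1 and 0 in Embryo. Every SmoM2 library was below every other adult library, and SmoM2 was 1.83 below WT on the log2 scale. SmoM2-Sox9cKO was 1.93 ± 0.38 above SmoM2 (limma, adjusted p = 0.0635), which did not pass, and 0.10 ± 0.38 above WT (adjusted p = 0.853). Its adjusted p against SmoM2 was 0.0246 to 0.433 over 20 alternatives, and 2 of them called it. Region chr4:132102465-132103058, 7.43 kb beyond the body, was occupied in 3 of 3 WT and 3 of 3 SmoM2-Sox9cKO libraries and in no SmoM2 library. Oprk1 had 1 region in 1 Embryo library and none in adult cells.

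Counted over the set, SmoM2 against WT had 4 of 38 tested members called higher (Grik2, Chrm3, Gria4, Grik4) and 7 lower (among them Oprm1, Htr1f, Htr4, Grin3a, Oprd1 and Grik5), where limma called 5.2% of all tested loci higher and 5.75% lower. Since the set was proposed from this comparison, nothing is read from these counts. In SmoM2-Sox9cKO against SmoM2, 2 members were called higher (Htr4 and Grin3a) and 1 lower (Chrm3), where 0.423% and 0.43% of all tested loci were called. In SmoM2-Sox9cKO against WT, 3 were higher (Grik2, Gria4, Grik4) and 5 lower (among them Oprm1, Htr1f, Grik1 and Grin3a), where 3.99% and 3.42% of all tested loci were called. The calls of Oprm1 and Grin3a rest on the WT and SmoM2 values that prompted the set, so nothing is read from these counts either. Without these 2 genes, a count added after seeing the data, 36 members were tested. Of them, 1 was called higher and 1 lower in SmoM2-Sox9cKO against SmoM2, and 3 higher and 3 lower against WT. Groups that did not overlap in counts were found at 5 tested members higher and 6 lower in SmoM2 against WT, where 11.2% and 5.58% of all tested loci did so. In SmoM2-Sox9cKO against SmoM2 there were 3 and 3 such members (2 and 3 without Oprm1 and Grin3a), where 1.99% and 3.61% of all tested loci did so. Against WT there were 5 and 5 (5 and 3 without them), where 8.11% and 5.21% did so. The 3 comparisons share libraries pair by pair. The median log2 difference of the tested members was close to that of all tested loci in each: −0.12 and −0.12, 0.06 and 0.06, and −0.04 and −0.06. With Y-linked intervals as a covariate, Chrm3 (adjusted p = 0.00825) and Htr4 (adjusted p = 0.0259) still passed between the transgenic groups. Grik4, Grik2, Grik1 and Htr1f still passed against WT, while Gria4 (adjusted p = 0.0796) did not.

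Of the 301 member regions, 27 (8.97%) were present in every SmoM2 library and absent from every WT library, and 21 (6.98%) the reverse, where 6.91% and 3.11% of all 124941 regions did so. Of the 21, 5 lay at Oprm1 and 3 at Grin3a, whose values prompted the set, and nothing is read from these shares. Between the transgenic groups, 12 (3.99%) were gained in SmoM2-Sox9cKO and 8 (2.66%) lost, beside 0.678% and 1.34% of all regions. Against WT, SmoM2-Sox9cKO gained 19 (6.31%) and lost 13 (4.32%), beside 4.26% and 2.69%. Over the 291 regions outside Oprm1 and Grin3a, 11 (3.78%) were gained and 8 (2.75%) lost between the transgenic groups. Against WT, 19 of the 291 (6.53%) were gained and 6 (2.06%) lost, so the share lost moved from above to below that of all regions. By pattern over the 3 adult groups, 11 regions (3.65%) were in all libraries of both transgenic groups and no WT library, near the 3.1% of all regions. In all SmoM2 libraries alone there were 6 (1.99%), 5 of them at Chrm3 and 1 at Gria4, beside 0.924%. A further 13 (4.32%) were in all WT libraries alone, beside 1.77%. Of these, 5 lay at Oprm1, and chr4:49845061-49845906 and chr4:49688402-49689289 lay at Grin3a. They are the same 13 that SmoM2-Sox9cKO lost against WT, so 6 of 291 (2.06%) remain without both genes. In 4 regions (1.33%), at Grin3a, Grm6, Htr4 and Oprd1, all WT and all SmoM2-Sox9cKO libraries were occupied and no SmoM2 library was, beside 0.247%. The 5 regions (1.66%) found in all SmoM2-Sox9cKO libraries alone lay at Grik4 (3), Htr4 and Gabrr2, beside 0.201%. These patterns use the WT and SmoM2 values too and are given as a description.

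**Figure D4:**
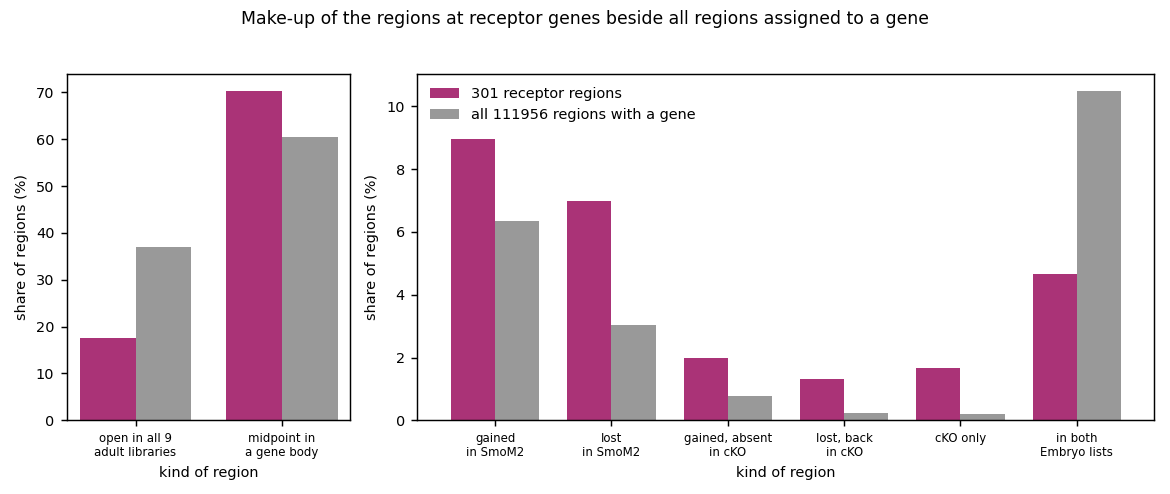
Share (y axis, %) of the 301 regions at receptor loci (purple) and of all 111956 regions assigned to a gene (grey) that show each occupancy pattern (x axis; cKO is SmoM2-Sox9cKO; gained and lost mean 3 of 3 libraries against 0 of 3). Receptor regions were less often open in all 9 adult libraries (17.6% against 37.0%) and in both Embryo lists (4.65% against 10.5%); these shares are given without a test.

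In the Embryo libraries, 66 and 17 member regions were occupied, and 14 (4.65%) were in both lists against 10.5% of regions with a gene. With every list cut to its 14255 intervals of smallest p, the Embryo libraries kept 15 and 17 member regions and the adult libraries 6 to 10. Of the 301 regions, 24 (7.97%) occurred in an Embryo list and in no adult list, against 3.35%. The 3 regions gained in SmoM2 over WT and occupied in both Embryo libraries were a pair at Chrm3 and chr9:42865032-42866827 at Grik4. Age, gate, genotype and list length all differ between the embryonic and adult libraries and cannot be told apart.

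Start-site windows (250 bases before to 50 after the start) were given in RefSeq for 47 of the 65 members, 58 windows in all. Of these, 16 (27.6%) were occupied in all 9 adult libraries, against 56.5% of 21045 windows of protein-coding genes. Among CpG-rich windows, with an observed to expected CG ratio of at least 0.6, 10 of 22 (45.5%) were occupied in all 9 and 10 in some, against 89.6% and 6.18% of all such windows. Those open throughout belonged among others to Grik4, Grin1, Grin2d, Grm2, Grm8, Chrm4, Gabre and Htr6. CpG-rich windows at Grik3 and Htr1f were occupied in no adult library. The 4 motifs below were searched on both strands of the windows. GACCACCCA, the Gli consensus, was in 0 member windows and 0.181% of all. AACAAAG, a motif of Sox factors, was in 1 member window (1.72%), at Grm6, and in 4.99% of all. At Grm6 it lies on the strand opposite to the printed stretch, which reads CTTTGTT there, starting at base 73. TGANTCA, the AP-1 motif, was in 4 (6.9%) and in 7.04%, and TTCAGCACC, of the neuronal repressor REST, was in 1 (1.72%), at Grm2, and in 0.418%. A match is a description of letters and not a binding site.

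**Figure D5:**
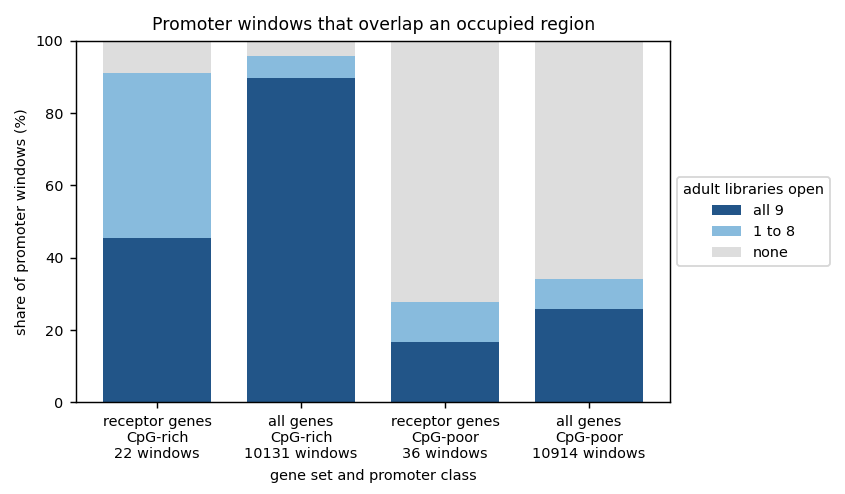
Share (y axis, %) of start-site windows occupied in all 9, in 1 to 8 or in none of the adult libraries, for receptor genes and all protein-coding genes, split by CpG content (x axis). Of the 22 CpG-rich receptor windows 45.5% were occupied in all 9 adult libraries, against 89.6% of 10131 CpG-rich windows of all genes.

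Other genes of transmitter signalling, from lists that hold none of the members, were counted the same way. Among 44 other receptor genes (nicotinic, glycine, dopamine and adrenergic receptors and others), 30 were tested. In SmoM2-Sox9cKO against WT 4 were called higher and 1 lower, where 3.99% and 3.42% of all tested loci were called. Against SmoM2 1 was lower, where 0.43% were. Adra2c, an alpha-2 adrenergic receptor, had 0, 0 and 0 regions in WT, 1, 0 and 1 in SmoM2 and 1, 1 and 5 in SmoM2-Sox9cKO. It is among the 4 called higher against WT. It reached the limit for testing only through the transgenic groups, mostly through SmoM2-Sox9cKO replicate 3, so no p-value is given and nothing is read from this call. Glra4, a glycine receptor subunit, had 1, 2 and 2, then 2, 1 and 2, and 0 in all 3 SmoM2-Sox9cKO libraries (limma, adjusted p = 0.00453 against SmoM2). Among 31 genes of transmitter synthesis and transport, 23 were tested. Slc6a11, a GABA transporter, had 1, 1 and 1 regions in WT, 7, 6 and 10 in SmoM2 and 10, 10 and 7 in SmoM2-Sox9cKO, and rose by 2.58 ± 0.16 in the last against WT (limma, adjusted p = 5.36e-05). Of 40 genes of receptor scaffolds and auxiliary subunits, 36 were tested. Nrxn3, a presynaptic adhesion gene, had 7, 13 and 9 regions in WT, 39, 31 and 28 in SmoM2 and 26, 13 and 18 in SmoM2-Sox9cKO. Cacng4, which encodes an AMPA receptor auxiliary subunit, had 5 in each WT library, 2 in each SmoM2 library and 3, 4 and 4 in SmoM2-Sox9cKO. In SmoM2-Sox9cKO against SmoM2, limma called 0 of these 23 and 0 of these 36. By the same adjusted threshold it called 0.853% of all tested loci in both directions together. At an unadjusted p under 0.05 by limma there were 3 and 12. The unadjusted share of all loci is not given here, so nothing is read from the 3 and 12.

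Markers of cell types that the sorted pools could hold were measured the same way, and their part in the differences was not tested. The 13 Schwann cell and glial genes summed to 50 to 57 occupied regions in WT, 47 to 48 in SmoM2 and 44 to 52 in SmoM2-Sox9cKO, and none of them was at 0 in all adult libraries. Among them Cdh19 had 5, 5 and 4 regions in WT and 0 in every transgenic library, and Sox10 had 2 to 3, 2, and 2 to 5. The 17 neuronal genes summed to 65 to 84, 82 to 97 and 85 to 98, with Vip at 0 in all adult libraries, and called members went both ways. Snap25, of the machinery that releases transmitter, had 3, 5 and 5 regions in WT, 9, 9 and 10 in SmoM2 and 14, 13 and 12 in SmoM2-Sox9cKO. Hand2, a transcription factor of autonomic neurons and mesenchyme, had 8, 9 and 11, then 1, 4 and 4, then 2, 1 and 2. In SmoM2-Sox9cKO against WT limma called Snap25 (adjusted p = 0.000374), Stmn2 and Syt1 higher and Hand2 (adjusted p = 0.00958) lower, of 15 tested. In that comparison it called 3.99% of all tested loci higher and 3.42% lower. The 8 neuroendocrine genes summed to 10 to 14, 12 to 13 and 13 to 14. The 7 melanocyte genes summed to 15 to 21, 28 to 30 and 21 to 23, and Kit was at 0 in WT and at 6 to 9 and 4 to 5 in the transgenic groups. The other genes did not share this pattern. Mitf had 5 to 10, 10 to 11 and 7 to 11 regions, Dct 5 to 8, 5 to 7 and 5, and Tyrp1 2 to 3, 3, and 2 to 3. Mlana had 1 to 3, 1 to 2 and 1 to 2, and Tyr and Pmel had at most 1. The 11 muscle genes summed to 23 to 29, 19 to 26 and 21 to 30, with Tagln and Myf5 at 0. Among them Acta2 had 5, 6 and 4 regions in WT, 3, 2 and 3 in SmoM2 and 2, 2 and 3 in SmoM2-Sox9cKO. Of 7 tested, limma called Acta2 (adjusted p = 0.0221) and Cnn1 (adjusted p = 0.0468) lower in SmoM2-Sox9cKO against WT, beside 3.42% of all tested loci. It called Ano1 higher in SmoM2-Sox9cKO against SmoM2 (adjusted p = 0.0431), beside 0.423% of all tested loci. The 8 endothelial genes summed to 31 to 37, 41 to 52 and 46 to 48, none of them at 0 in all adult libraries. In SmoM2-Sox9cKO against WT limma called Pecam1, Cdh5, Emcn and Tek higher and Esam lower, of 8 tested, beside 3.99% and 3.42% of all tested loci. The 8 fibroblast genes summed to 23, 21 to 22 and 25 to 30, with Lum at 0. Among them Twist2 had 0, 1 and 1 regions in WT, 6, 6 and 7 in SmoM2 and 5, 7 and 6 in SmoM2-Sox9cKO, and Dpt had 6, 5 and 5, then 3, 1 and 0, then 2, 1 and 1. The 8 immune genes summed to 12 to 17, 16 to 21 and 17 to 21, and Ptprc had 0 in each WT library, 6, 1 and 2 in SmoM2 and 1 in each SmoM2-Sox9cKO library. The 18 epithelial genes summed to 198 to 215, 203 to 249 and 214 to 230. Among them Krt4 had 4, 4 and 4 regions in WT, 2, 3 and 3 in SmoM2 and 4, 3 and 3 in SmoM2-Sox9cKO. Tfap2c had 13, 15 and 12, then 10, 11 and 12, then 11, 10 and 10. Limma called 0 of the 18 higher and 1 lower (Tfap2c) in SmoM2-Sox9cKO against WT, beside 3.99% and 3.42% of all tested loci.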

How the data were processed

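ATAC-seq libraries of 11 sorted cell samples were analysed from the authors' lists of open intervals. Per the submitters' processing notes, Trimmomatic, Bowtie2, Picard, MACS2 and deepTools were used with GRCm38/mm10. For versions, the notes hold no entry: not given in the sources used here. The authors deposited 1 list per library in the 10-column MACS2 layout: the score (column 5) and the summit offset were not used. The fold enrichment (column 7), the −log10 p-value and the −log10 q-value of each interval were deposited by the authors and served only to rank or filter intervals within a list. No read depth is given, so no interval or floor for counting error could be set.

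From these lists, repeated intervals were merged, chromosomes 1 to 19 and X kept, and intervals overlapping by at least 1 bp joined into 124941 regions (median 693 bp). Of these, 111956 (89.6%) had a midpoint in or within 100 kb of a protein-coding gene body (RefSeq, GRCm38.p6). A region in several gene bodies went to the shortest. Occupied regions per locus were taken as log2((regions + 0.5) / (library total + 1) × 100000) and fitted with limma 3.58.1 in R 4.3.3 (variance trend, all 9 adult libraries, 15365 loci, Benjamini-Hochberg adjustment within each comparison, threshold 0.05), after the script was tested on simulated data. In those data, drawn for SmoM2 against WT, most 2-fold and most 4-fold changes were not called, so a member that did not pass is not shown to be unchanged. Samples were grouped by genotype in the labels. Samples with the same replicate number did not deviate together, so no pairing was used. Named with values were members called in any adult comparison, the 8 with the largest log2 change in each, Oprm1, Oprd1, Oprk1 and Grin3a, with up to 5 switching regions per member and up to 3 genes per other list and comparison; other members are given after their values were seen. Some genes that the rule names are not reported here. Members and lists were chosen with earlier results of these data known. Sequences and start-site windows came from a RefSeq table of GRCm38.p6. Alternatives changed the q filter, list length, reach, low-count filter, added constant, scaling, covered base pairs, tie rule, replicate block, Y-linked covariate and the libraries used.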

Additional observations from a re-analysis of the deposited data

How the results depend on the processing

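Small numbers of regions limit the tests: most members had 1 to 5 occupied regions per library, so libraries that happen to agree give a small spread, and a difference of 1 region can be called or lost. Depth is unknown, and a region just under the authors' threshold counts as closed. Counts of members called moved by more than 1.5 times in 26 of 132 alternative values over all 65 members. In SmoM2 against WT the 4 members called higher became 2 with −log10 q of at least 5, 2 with lists of equal length and 8 with no filter on low counts; the 7 lower became 1 with a mean of at least 3 regions, 3 without scaling by the library total and 3 with the Y-linked covariate. In SmoM2-Sox9cKO against SmoM2 the 2 higher became 0 with the q filter (4 at an unadjusted p under 0.05 by limma), 0 with equal lists (5 unadjusted), 4 with no filter, 1 with a mean of at least 3, where fewer loci are tested, and 1 with only the 6 libraries compared; the 1 lower became 0 with the q filter (6 unadjusted) and 2 with covered base pairs. In SmoM2-Sox9cKO against WT the 3 higher became 1 with a reach of 20 kb, 5 with no filter and 5 with covered base pairs; the 5 lower became 2 with equal lists, 0 with a mean of at least 3 (0 unadjusted; the called members are below that mean), 2 without scaling and 3 with only the 6 libraries. Member regions gained in SmoM2-Sox9cKO against SmoM2 went from 12 to 2 with the q filter, those lost from 8 to 2 with the q filter and 5 with equal lists, and the 66 regions of Embryo 1 to 15 with equal lists. Unless the construction shows it, the cause was not tested. Leaving out each library in turn gave 4 to 5 members higher and 4 to 6 lower in SmoM2 against WT, 2 to 2 and 1 to 2 in SmoM2-Sox9cKO against SmoM2, and 2 to 4 and 3 to 5 in SmoM2-Sox9cKO against WT. Regions gained and lost became 28 to 41 and 23 to 24, 13 to 16 and 8 to 19, and 21 to 26 and 13 to 21 in the same order. Leaving a library out asks for agreement of fewer libraries, so these region counts could only stay or rise. The 41 and the 19 are without SmoM2 replicate 2, and the 21 lost without SmoM2-Sox9cKO replicate 1. Signs turned for Grik1 in SmoM2-Sox9cKO against SmoM2 with a reach of 20 kb (0.59), for Gabrb2 there with the q filter (−0.0487) and equal lists (−0.0001), and for Gria4 against WT with the q filter (−0.25). Over all loci, SmoM2 against WT had 799 higher and 884 lower, 764 and 341 without scaling, 392 and 335 with the Y-linked covariate, and 1305 and 1546 with covered base pairs. SmoM2-Sox9cKO against SmoM2 had 65 and 66, then 50 and 70, 13 and 21, and 96 and 115, with 13 and 20 without SmoM2 replicate 1 and 8 and 20 without SmoM2-Sox9cKO replicate 3. SmoM2-Sox9cKO against WT had 613 and 525, then 508 and 261, 543 and 408, and 1064 and 1104. With the replicate block, 4 members were higher and 6 lower, 2 and 1, and 3 and 5 in the 3 comparisons. Same-numbered libraries had deviations correlated by −0.0672 to 0.0802, so the numbers do not pair the samples. Without Oprm1 and Grin3a the 2 members higher in SmoM2-Sox9cKO against SmoM2 became 1, the 5 lower against WT became 3, and regions lost became 13 in SmoM2 against WT and 6 in SmoM2-Sox9cKO against WT. This and counting a region at each gene body that holds it were chosen after seeing the data.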
